A study of Mus musculus with 15 samples.

Results

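Interferon response and antigen presentation genes were described across mouse brain tumour cells and untransformed neurospheres. The genes were 34 named members, chosen by gene symbol from those known to be induced by interferon or to load peptides onto class I molecules. They fell into 5 signalling and transcription genes, 14 antiviral effectors, 5 genes of the ISG15, ubiquitin and ADP-ribose systems, 1 sensor, 3 immunoproteasome subunits, 3 genes of peptide transport and loading and 3 class I molecules. Of the 18193 genes that the array annotation gives by a single symbol, 32 were members, and where a gene had several probe sets, the brightest over all arrays stood for it. Isg15 had only a probe set shared with a predicted gene and Ifi44 had none, so no value is given for either.

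Expression was measured on 15 Affymetrix arrays in 5 groups of 3. All groups carried the S100beta-verbB transgene, in which the S100beta promoter drives an activated form of the EGF receptor, on a p53-/- or p53+/- background, and the labels do not say which of these genotypes each culture had. The 3447 SP, 3447 non-SP and 4346 SP groups were cultured tumorspheres, floating cultures regrown from brain tumours that the line 3447 or 4346 formed after injection into hosts of the strain NOD.Cg-Prkdc<scid>Il2rg<tm1Wjl>/SzJ, which lacks T, B and NK cells. Each line came from a single original tumour, so the 3 arrays of a tumour group are 3 injected mice and not 3 tumours. The neurosphere SP and neurosphere non-SP groups were the untransformed controls, which the study text attributes to 3 independent transgenic mice in a passage and to mice injected with neurospheres in another. SP cells, the side population, retain little of a DNA dye because transporters pump it out, and non-SP cells retain it. No age and no interferon treatment is given for any group.

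Type I interferons act through a receptor and its kinases on STAT2, which joins IRF9 in a complex that binds interferon-stimulated response elements (ISRE) in the promoters of antiviral genes. Interferon gamma acts through gamma-activated sites (GAS) and through the factor IRF1, and it raises guanylate-binding proteins, the immunoproteasome and class I genes. Class I molecules, a heavy chain with beta-2-microglobulin, carry peptides that the proteasome cuts and the TAP transporter and tapasin load, and neural stem cells and glioma cells are known to respond to interferons with both programmes.

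Promoters of 5 members are shown as examples of windows with such matches, from members called between tumour lines and neurospheres or far apart between neurosphere arrays. The called members Trim25, H2-K1, H2-D1, Dtx3l and Tapbp have windows that held no match and are not shown. Each line runs 5′ to 3′ along the gene's strand from 250 bases before to 50 bases after the start in the RefSeq annotation of GRCm38.p6, and capitals mark matches to the letters GAAANNGAAA (ISRE) or TTCNNNGAA (GAS) on either strand. Gbp3 and Gbp2, which encode guanylate-binding GTPases, lie at chr3:142559794-142560093 and chr3:142620413-142620712 on the plus strand. Ifit1, whose protein binds viral RNA, is at chr19:34640639-34640938 on the plus strand, and Rsad2, which encodes the antiviral enzyme viperin, is at chr12:26456403-26456702 on the minus strand. Ifi35, which encodes an interferon-induced leucine zipper protein, is at chr11:101448162-101448461 on the plus strand.
Gbp3: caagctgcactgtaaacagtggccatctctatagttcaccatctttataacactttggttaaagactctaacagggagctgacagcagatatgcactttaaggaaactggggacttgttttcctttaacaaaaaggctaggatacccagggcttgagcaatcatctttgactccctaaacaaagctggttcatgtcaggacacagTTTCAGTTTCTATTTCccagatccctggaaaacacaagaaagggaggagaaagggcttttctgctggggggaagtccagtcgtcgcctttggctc
Gbp2: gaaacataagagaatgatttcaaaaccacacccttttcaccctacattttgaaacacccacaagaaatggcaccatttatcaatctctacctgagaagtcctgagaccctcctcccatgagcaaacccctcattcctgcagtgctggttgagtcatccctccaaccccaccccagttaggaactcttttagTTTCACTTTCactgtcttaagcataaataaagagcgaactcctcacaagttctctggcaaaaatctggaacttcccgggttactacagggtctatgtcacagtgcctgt
Ifit1: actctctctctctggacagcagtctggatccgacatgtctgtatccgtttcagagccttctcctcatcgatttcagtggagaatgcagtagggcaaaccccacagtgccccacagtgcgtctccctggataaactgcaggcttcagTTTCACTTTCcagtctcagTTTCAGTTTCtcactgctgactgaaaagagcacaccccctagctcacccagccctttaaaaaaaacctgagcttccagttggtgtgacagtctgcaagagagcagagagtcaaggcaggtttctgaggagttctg
Rsad2: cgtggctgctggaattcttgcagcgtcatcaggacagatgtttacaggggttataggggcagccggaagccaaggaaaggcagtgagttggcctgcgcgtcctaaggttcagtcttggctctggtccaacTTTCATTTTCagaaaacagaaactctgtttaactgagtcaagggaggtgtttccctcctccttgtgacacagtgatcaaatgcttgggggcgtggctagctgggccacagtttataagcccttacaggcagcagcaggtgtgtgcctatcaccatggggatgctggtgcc
Ifi35: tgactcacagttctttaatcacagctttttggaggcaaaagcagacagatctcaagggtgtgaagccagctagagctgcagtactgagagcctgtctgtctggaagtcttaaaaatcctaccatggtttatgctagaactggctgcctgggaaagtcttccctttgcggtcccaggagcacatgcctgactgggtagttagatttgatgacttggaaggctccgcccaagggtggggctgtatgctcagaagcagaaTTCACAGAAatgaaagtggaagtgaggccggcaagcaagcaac

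The ISRE letters, on the reverse strand, were 45 to 30 bases before the start of Gbp3 as 2 overlapping matches and 59 to 50 bases before that of Gbp2. Ifit1 held 2 matches and Rsad2 held 1, all within 120 bases before the start. The Ifi35 window held no ISRE match and a GAS match 7 to 15 bases after its first transcribed base. RefSeq promoters were found for 28 members, with 33 windows in all. ISRE letters were in 11 of the 33 windows (33.3%), against 3.44% of the 32851 windows of all genes. They belonged to B2m, Bst2, Gbp2, Gbp3, Ifih1, Ifit1, Ifit3, Ifitm3, Isg15, Rsad2 and Stat2. GAS letters were in 6 windows (18.2%), against 8.3% of all windows, those of Bst2, Ifi35, Ifit2, Ifitm3, Irf1 and Psmb8. In Bst2 the GAS match overlapped an ISRE match, and in Ifitm3 both lay after the start and overlapped as well. A match is a run of letters and not a shown binding site, and a window without one says nothing about the factor.

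**Figure D1:**
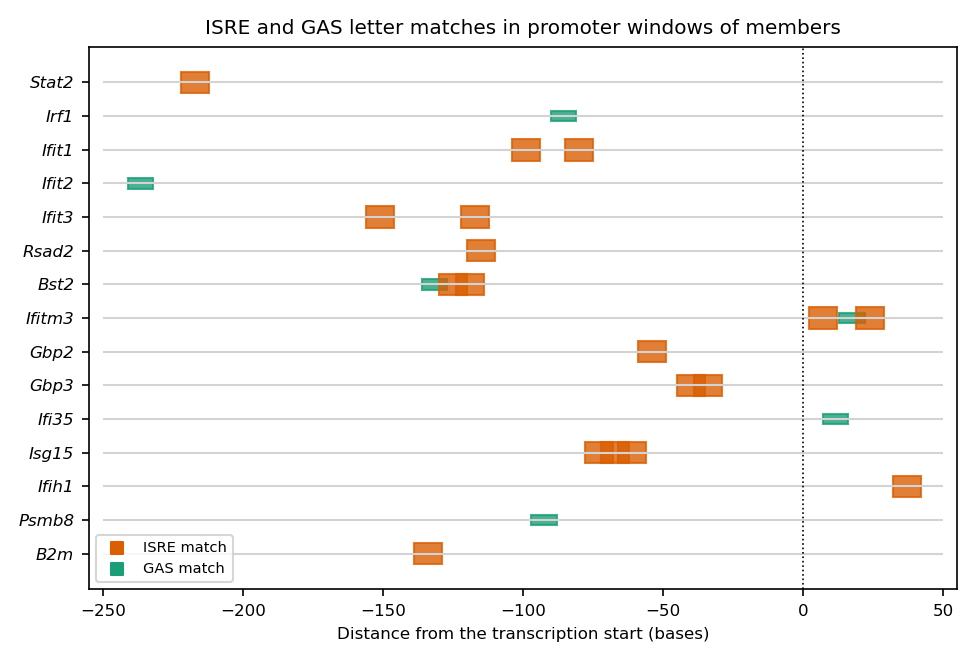
Positions of ISRE (orange) and GAS (green) letter matches in the promoter windows of the 15 members that held any, in bases from the transcription start (dotted line). Most ISRE matches lay before the start, within 160 bases of it, and those of Ifitm3 and Ifih1 lay after it, while that of Stat2 lay 222 to 213 bases before it.

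Of the 32 members on the array, 22 passed the filter on low signals, for which a gene had to exceed the array median on 3 arrays or more, and were tested. The other 10 were Irf7, Mx1, Mx2, Oasl2, Parp14, Psmb8, Psmb9, Tap2, Usp18 and Xaf1, with deposited signals between 0.697 (Oasl2) and 111 (Xaf1). Mx1, Mx2 and Oasl2 are antiviral effectors, Irf7 amplifies type I interferon production, and Psmb8 and Psmb9 are inducible proteasome subunits. Psmb8, Psmb9, Tap2, Mx2 and Parp14 stood above the array median on 0 of the 15 arrays. Of the tested members, 12 stood above it on all 15 arrays. Gbp2 and Gbp3 passed through the neurosphere arrays alone, with 0 of 9 tumour arrays above the median, and Bst2, tetherin, which holds virus particles at the cell surface, passed through 5 tumour arrays alone. A call of these 3 genes is thus tied to the filter.

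The median signal was highest, 89.3, on 3447 SP array 3 and lowest, 40.0, on a 3447 non-SP array, and 4346 SP array 3 had an actin 3' to 5' ratio of 5.30, against 2.49 to 3.29 elsewhere. Both neurosphere arrays numbered 3 stood apart in many members. Results are given with them, and for some members also without them. Those of the other gene lists are given with them alone. Microglia and macrophage markers were low, with 3 of 14 tested, 0 called against neurospheres and summed signals of 213 to 482 in 3447 SP, 130 to 289 in 3447 non-SP, 296 to 493 in 4346 SP, 347 to 704 in neurosphere SP and 314 to 367 in neurosphere non-SP. Aif1, a defining microglia gene, was at most 12.3 on any array. Of the 14 markers, 1 stood above the array median on all 3 arrays in 3447 SP, 4346 SP and neurosphere SP each. In 3447 non-SP and neurosphere non-SP 0 did. Of 7 T, B and NK cell markers and 7 endothelial markers on the array, 0 passed the filter. The 9 pericyte and fibroblast markers on the array summed to 1178 to 3197 in 3447 SP and 449 to 1476 in 3447 non-SP. They summed to 7649 to 8163 in 4346 SP, 261 to 291 in neurosphere SP and 122 to 279 in neurosphere non-SP. Of the 4 tested, 2, 2 and 1 were higher in 3447 SP, 4346 SP and 3447 non-SP than in neurospheres, and 0 were lower. Their median log2 differences were 1.76, 1.69 and 0.39 in that order. Above the array median on all 3 arrays were 3 markers in 3447 SP and 1 in 4346 SP. There was 1 in 3447 non-SP and in neurosphere SP each, and 0 in neurosphere non-SP. Col1a1, a fibrillar collagen, rose by 3.85 in 3447 SP, 6.0 in 4346 SP and 3.60 in 3447 non-SP on the log2 scale, and the part of these markers in the members' results was not tested. Neural stem and progenitor markers were present in all groups, with 5 to 7 of 7 above the array median on every array of a group. Of these 7, 0 were higher, and 4 were lower in 3447 SP, 5 in 4346 SP and 3 in 3447 non-SP than in neurospheres, with medians of -1.07, -1.67 and -0.90 on the log2 scale. Of 8 oligodendrocyte progenitor markers 5, 5 and 4 were higher and 2, 1 and 1 lower in the same order. Their medians were 2.57, 3.03 and 1.68. Their summed signals were 12381 to 17469 in 3447 SP, 19274 to 22225 in 3447 non-SP and 19402 to 24571 in 4346 SP, against 7121 to 12841 in neurosphere SP and 9544 to 13592 in neurosphere non-SP. Of 8 astrocyte markers 4, 2 and 3 were lower and 1, 1 and 2 higher. The part of these markers in the members' results was not tested either. Fewer cells of a type and less RNA per cell cannot be told apart in these bulk samples.

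**Figure D2:**
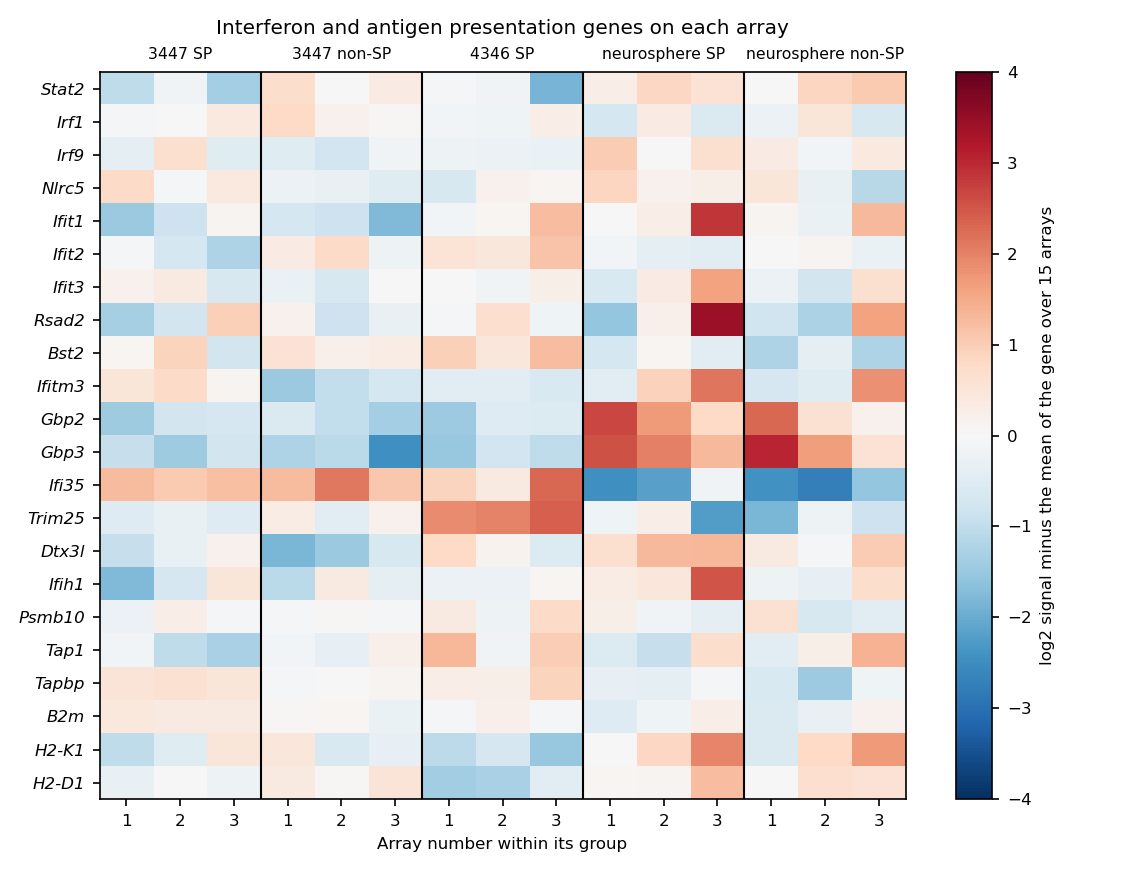
Heat map of the 22 tested members, each row a gene in the order of roles and each column an array, grouped with tumour groups left of neurospheres. Colour is the normalized log2 signal minus the mean of that gene over the 15 arrays. Gbp2 and Gbp3 were low on every tumour array, Ifi35 was high on every tumour array, Trim25 was high on the 3 arrays of 4346 SP, and Rsad2 was highest on neurosphere SP array 3.

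Gbp2 and Gbp3 were lower and Ifi35 was higher in the tumour lines than in neurospheres, in SP cells of 3447 and 4346 and in non-SP cells of 3447. The calls of Gbp2 and Gbp3 are among those tied to the filter. Of the 22 tested members, 5 passed in 3447 SP against neurosphere SP (22.7%), where 19.6% of all 11908 genes did, with limma and Benjamini-Hochberg adjustment over all genes at 0.05. In 4346 SP against the same neurosphere SP arrays 8 members passed (36.4%), where 24.3% of all genes did. In 3447 non-SP against neurosphere non-SP 6 passed (27.3%), where 19.4% of all genes did. The members split by direction, with 2 higher and 3 lower in 3447 SP (10.7% and 8.96% of all genes), 4 higher and 4 lower in 4346 SP (14% and 10.3%), and 3 higher and 3 lower in 3447 non-SP (11.2% and 8.21%). An unadjusted p under 0.05 was found for 10, 13 and 8 members in these comparisons, against 32.3%, 36.6% and 31.7% of all genes. Their median log2 difference was -0.52 in 3447 SP, -0.56 in 4346 SP and -0.18 in 3447 non-SP, against -0.03, 0.02 and 0.04 for all genes. On the normalized scale 8, 14 and 9 members did not overlap between the groups (36.4%, 63.6% and 40.9%), against 36%, 36.9% and 38.8% of all genes. The SP comparisons of the lines share their neurosphere arrays, so their values are set side by side and not counted as independent.

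Gbp3 had deposited signals of 46.0, 15.1 and 82.9 in 3447 SP, 19.1, 38.5 and 1.57 in 3447 non-SP and 13.2, 34.5 and 33.1 in 4346 SP, against 565, 399 and 237 in neurosphere SP and 845, 334 and 128 in neurosphere non-SP. Each tumour array was below each neurosphere array. Gbp3 fell in all 3 comparisons, with log2 differences of -2.98 ± 0.54 in 3447 SP (SE, adjusted p = 0.000875 by limma), -3.07 ± 0.54 in 4346 SP (adjusted p = 0.000611) and -3.34 ± 0.54 in 3447 non-SP (adjusted p = 0.000324). These fold changes are on log2 of the normalized signal plus 16, so changes of dim genes are understated.

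Gbp2 had signals of 2.31, 8.17 and 27.1 in 3447 SP, 10.5, 11.9 and 1.58 in 3447 non-SP and 1.06, 12.3 and 17.5 in 4346 SP, against 284, 141 and 70.9 in neurosphere SP and 223, 74.1 and 34.2 in neurosphere non-SP. The tumour and neurosphere arrays did not overlap. It fell in all 3 comparisons, with differences of -2.67 ± 0.57 in 3447 SP (log2 ± SE, adjusted p = 0.00323 by limma), -2.55 ± 0.57 in 4346 SP (adjusted p = 0.00382) and -1.99 ± 0.57 in 3447 non-SP (adjusted p = 0.0204). Another Gbp2 probe set passed at -2.29 and -2.74 in the SP comparisons of 3447 and 4346 and stood at -1.51 in non-SP cells, where its adjusted p was 0.0508 by limma. Leaving out 3447 non-SP array 2 or 3 or neurosphere non-SP array 1 ended the non-SP call of Gbp2, with adjusted p up to 0.122 by limma. Gbp7, a neighbour of Gbp3 in RefSeq gene order and no member, fell too, with differences of -3.89 ± 0.53, -3.24 ± 0.53 and -3.92 ± 0.53 in 3447 SP, 4346 SP and 3447 non-SP (adjusted p = 7.06e-05, 0.000345 and 6.18e-05 by limma). Gbp6, another family member outside the 34, did not pass, at -0.71, 0.31 and -0.83 in the same order (adjusted p = 0.37, 0.707 and 0.293 by limma).

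Ifi35 had signals of 2258, 2010 and 2104 in 3447 SP, 2270, 4076 and 2004 in 3447 non-SP and 1751, 1213 and 4705 in 4346 SP, against 147, 191 and 832 in neurosphere SP and 155, 149.9 and 302 in neurosphere non-SP. All 9 tumour arrays were above all 6 neurosphere arrays. Ifi35 rose by 2.76 ± 0.55 in 3447 SP (log2 ± SE, adjusted p = 0.00204 by limma), by 2.77 ± 0.55 in 4346 SP (adjusted p = 0.00168) and by 3.72 ± 0.55 in 3447 non-SP (adjusted p = 0.000154). Its 3 probe sets moved unequally, and the suffixes of the set that stands for it and of the third mark possible cross-hybridisation. Another set rose by 1.57, 1.38 and 2.49 in 3447 SP, 4346 SP and 3447 non-SP, and the third stood at 0.44, -0.06 and 1.01 and did not pass.

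**Figure D3:**
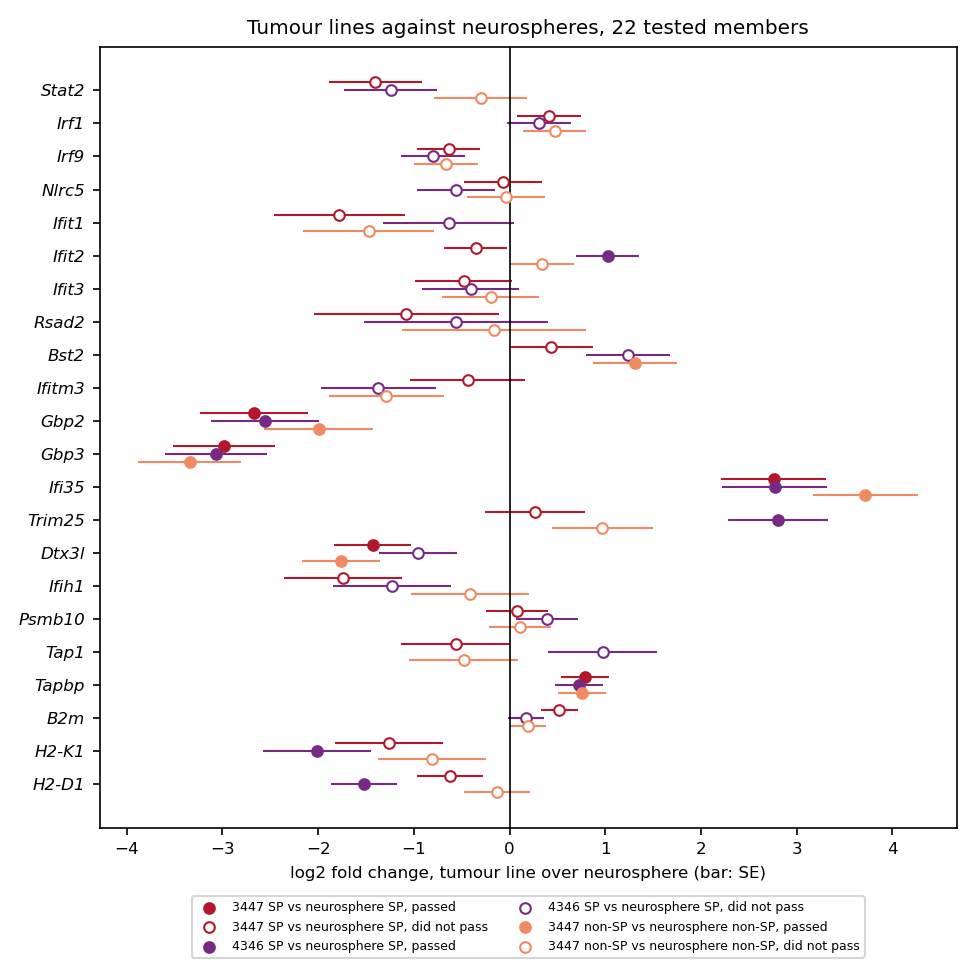
Log2 fold change of each of the 22 tested members (points) with its SE (bars), for 3447 SP and 4346 SP over neurosphere SP and 3447 non-SP over neurosphere non-SP. Filled points passed an adjusted p of 0.05 by limma and open points did not. Gbp2, Gbp3, Ifi35 and Tapbp are filled in all 3 comparisons, and Trim25, Ifit2, H2-K1 and H2-D1 in that of 4346 SP alone.

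Among the other antiviral effectors, 2 passed in a single comparison each. Ifit2, which binds AU-rich RNA, had signals of 261, 235 and 405 in 4346 SP against 149.8, 127 and 128 in neurosphere SP, and no array of one group reached the other. It rose by 1.03 ± 0.33 (log2 ± SE, adjusted p = 0.0344 by limma). Bst2 had signals of 47.3, 48.4 and 37.9 in 3447 non-SP against 5.50, 31.6 and 4.31 in neurosphere non-SP, again without overlap, and rose by 1.31 ± 0.44 (adjusted p = 0.0465 by limma). In 4346 SP Bst2 stood at 1.24 ± 0.44 with an adjusted p of 0.0509. The calls of Ifit2 and Bst2 ended when any of several single arrays was left out, with adjusted p up to 0.128 for Ifit2 and 0.14 for Bst2 by limma.

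Ifit1, Ifit3, Rsad2 and Ifitm3, the last a barrier to virus entry, passed in none of the 3 comparisons. Their log2 differences ran from -1.78 (Ifit1, adjusted p = 0.0814 by limma) to -0.44 (Ifitm3, adjusted p = 0.667) in 3447 SP. In 4346 SP they ran from -1.37 (Ifitm3) to -0.40 (Ifit3), and in 3447 non-SP from -1.47 (Ifit1) to -0.16 (Rsad2). All 4 genes were at their highest neurosphere signal on an array numbered 3.

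Trim25, a ubiquitin ligase that activates the RNA sensor RIG-I, was higher in 4346 SP. Its signals were 567, 583 and 797 in 4346 SP and 106, 103 and 126 in 3447 SP, against 114, 167 and 19.8 in neurosphere SP. The 4346 SP arrays stood above every other array. Trim25 rose by 2.80 ± 0.53 in 4346 SP over neurosphere SP (log2 ± SE, adjusted p = 0.00106 by limma), and another probe set rose by 1.88. The suffix of the set that stands for Trim25 also marks possible cross-hybridisation. In 3447 SP Trim25 stood at 0.27 ± 0.53 (adjusted p = 0.773) and in 3447 non-SP at 0.97 ± 0.53 (adjusted p = 0.225).

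Dtx3l, a ubiquitin ligase that works with Parp9, was lower in line 3447. It had signals of 247, 370 and 500.2 in 3447 SP against 691, 1097 and 1118 in neurosphere SP, and 99.5, 156 and 286 in 3447 non-SP against 583, 452 and 919 in neurosphere non-SP. Neither pair of groups overlapped. Dtx3l fell in both, at -1.43 ± 0.41 in 3447 SP (log2 ± SE, adjusted p = 0.0206 by limma) and -1.76 ± 0.41 in 3447 non-SP (adjusted p = 0.00573), and its other probe set passed at -1.08 and -1.79. In 4346 SP, with 786, 491 and 289, the groups overlapped and the difference was -0.96 ± 0.41 (adjusted p = 0.1). Without 3447 SP array 1, neurosphere SP array 2 or neurosphere SP array 3 the call in 3447 SP ended, with adjusted p up to 0.0982.

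The sensor Ifih1 (MDA5), which detects long double-stranded RNA, had signals of 6.29, 20.3 and 119 in 3447 SP and 34.0, 34.6 and 54.3 in 4346 SP, against 67.6, 80.4 and 386 in neurosphere SP. The 3447 SP array 3 overlapped the neurospheres and the 4346 SP arrays did not. The differences were -1.74 ± 0.62 in 3447 SP (adjusted p = 0.0591 by limma) and -1.22 ± 0.62 in 4346 SP (adjusted p = 0.162).

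Of the signalling and transcription members, 0 of 4 tested passed in any of the 3 comparisons by limma, and Stat2 in both SP comparisons and Irf9 in that of 4346 had an unadjusted p under 0.05. Stat2, the type I signalling factor, was nearest, at -1.40 ± 0.49 in 3447 SP (adjusted p = 0.0545 by limma) and -1.24 ± 0.49 in 4346 SP (adjusted p = 0.0754), and its other probe set stood at 0.03 and -0.81. Irf9, the DNA-binding partner of STAT2, stood at -0.64 in 3447 SP, -0.80 in 4346 SP and -0.66 in 3447 non-SP. Irf1 stood at 0.41, 0.31 and 0.47 and Nlrc5, the transactivator of class I genes, at -0.06, -0.56 and -0.03, in the same order.

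Class I heavy chains were lower in 4346 SP than in neurosphere SP. H2-K1 had signals of 116, 159 and 81.2 in 4346 SP against 266, 502 and 1118 in neurosphere SP, without overlap. It fell by 2.01 ± 0.57 (log2 ± SE, adjusted p = 0.0167 by limma). H2-D1 had signals of 43.2, 48.3 and 112 in 4346 SP against 166, 179 and 403 in neurosphere SP, also without overlap, and fell by 1.52 ± 0.35 (adjusted p = 0.00454). Leaving out 4346 SP array 3 or neurosphere SP array 3 ended the call of H2-K1, with adjusted p up to 0.0804 by limma, and did not end that of H2-D1. Both genes are represented by probe sets whose suffix marks possible cross-hybridisation, and class I genes are near-identical copies. Of the other 3 H2-K1 probe sets, the differences of 2 in 4346 SP were -1.42 and -1.20 and did not pass, and the third was too dim to test, while 2 other H2-D1 sets passed, at -2.04 and -1.18, and another did not, at -0.41 (adjusted p = 0.474 by limma, over all probe sets).

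In line 3447 the class I heavy chains did not pass. H2-K1 stood at -1.26 ± 0.57 in SP cells (adjusted p = 0.134 by limma) and -0.81 ± 0.57 in non-SP cells (adjusted p = 0.362), and H2-D1 at -0.63 ± 0.35 and -0.13 ± 0.35. B2m, beta-2-microglobulin, had signals of 8149, 8278 and 7857 in 3447 SP and 6317, 7698 and 6302 in 4346 SP, against 4648, 5922 and 7893 in neurosphere SP. In deposited signal only neurosphere SP array 3 reached the level of the 3447 SP arrays, and on the normalized scale these groups did not overlap. The B2m difference was 0.52 ± 0.19 in 3447 SP (adjusted p = 0.0649 by limma) and 0.17 ± 0.19 in 4346 SP (adjusted p = 0.543).

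Of the loading genes, Tapbp, which encodes tapasin, had signals of 5184, 5680 and 5045 in 3447 SP and 4638, 4533 and 7214 in 4346 SP, against 3123, 2886 and 3550 in neurosphere SP. In non-SP cells it had 3702, 3719 and 4034 in line 3447 against 2497, 1349 and 3388 in neurospheres, so the tumour arrays were above the neurosphere arrays of the same sort in each comparison. Tapbp rose by 0.79 ± 0.25 in 3447 SP (log2 ± SE, adjusted p = 0.0355 by limma), 0.72 ± 0.25 in 4346 SP (adjusted p = 0.0468) and 0.75 ± 0.25 in 3447 non-SP (adjusted p = 0.0457). All 3 calls were near the threshold, and leaving out single arrays raised the adjusted p to 0.0988, 0.192 and 0.212. Tap1, a TAP transporter subunit, had differences of -0.56, 0.98 and -0.48 and Psmb10, an immunoproteasome subunit, of 0.08, 0.39 and 0.11 in 3447 SP, 4346 SP and 3447 non-SP, and neither passed.

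**Figure D4:**
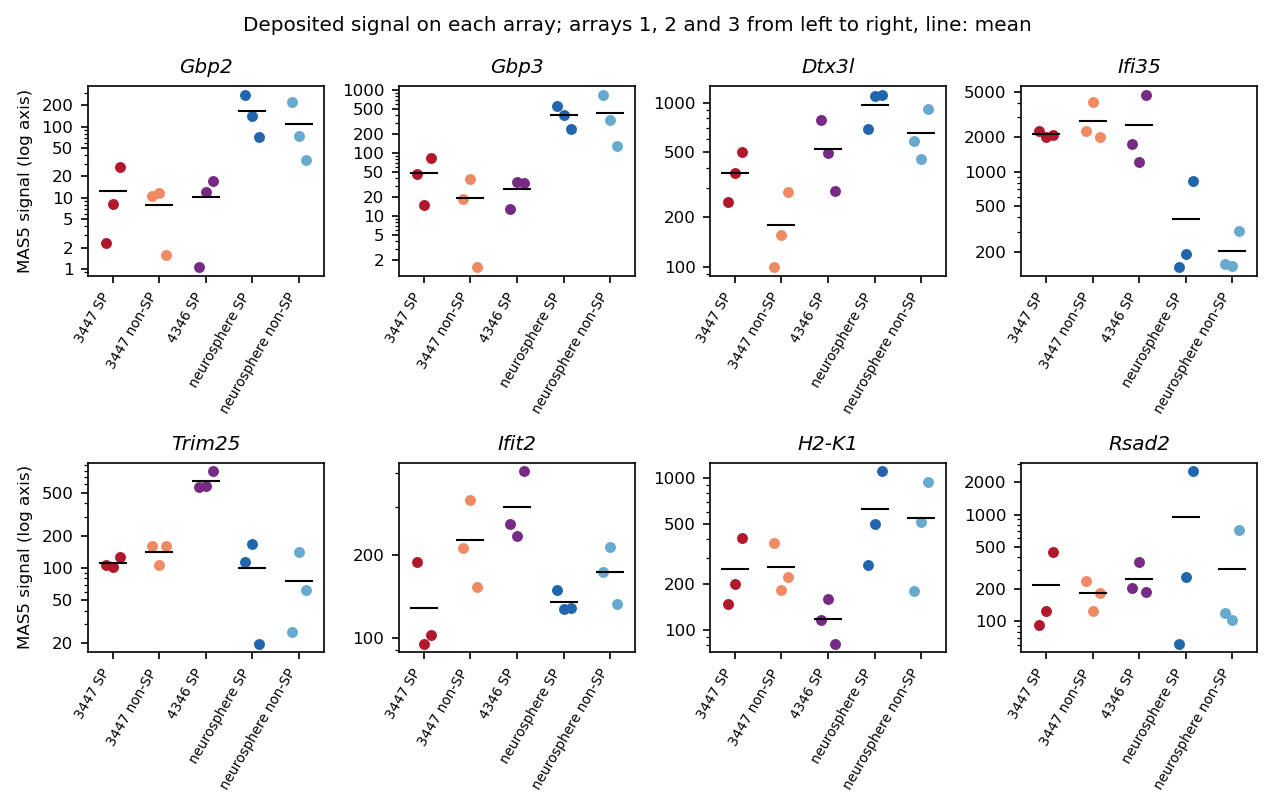
Deposited signal of 8 members on every array (points, arrays 1 to 3 from left to right within a group) with the group mean (line), on a log axis. Gbp2, Gbp3 and Ifi35 separate tumour from neurosphere arrays, Trim25 separates 4346 SP from all others, and Rsad2 reaches 2553 on neurosphere SP array 3 and 711 on neurosphere non-SP array 3.

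The SP cells of the tumour lines differed in 2 of 22 members (9.09%), where 1.65% of all genes passed. Both were lower in 3447 SP than in 4346 SP, as were 1.19% of all genes, while 0.462% were higher. Trim25 had 106, 103 and 126 in 3447 SP against 567, 583 and 797 in 4346 SP and stood at -2.54 ± 0.53 (log2 ± SE, adjusted p = 0.019 by limma), and its other probe set at -2.16 (adjusted p = 0.0138, over all probe sets). Ifit2 had 189, 95.3 and 102 in 3447 SP against 261, 235 and 405 in 4346 SP and stood at -1.38 ± 0.33 (adjusted p = 0.0486 by limma). Neither gene overlapped between the lines. With any single array left out, Trim25 stood between -2.62 and -2.38 and Ifit2 between -1.70 and -1.11. Trim25 no longer passed when any of the 3447 SP arrays or 4346 SP array 3 was left out and Ifit2 when any of 12 single arrays was, with adjusted p up to 0.0976 and 0.195 by limma. On the normalized scale 5 members did not overlap (22.7%), against 19.6% of all genes, with 3 higher in 3447 SP (9.01% of all genes) and 2 lower (10.6%). H2-D1 stood at 0.89 ± 0.35 (adjusted p = 0.217), H2-K1 at 0.75 ± 0.57 (adjusted p = 0.534) and B2m at 0.35 ± 0.19 (adjusted p = 0.375) by limma, so the class I genes called in 4346 SP against neurospheres were not shown to differ between the lines.

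No member passed between SP and non-SP cells of line 3447 by limma, where 0.0084% of all genes passed, and 5 members had an unadjusted p under 0.05 (22.7%), against 7.21% of all genes. The median of the members was -0.02, against -0.01 for all genes. The 3 smallest p were those of Ifit2 at -0.96 ± 0.33 (adjusted p = 0.534), Ifitm3 at 1.50 ± 0.60 (adjusted p = 0.64) and Stat2 at -1.18 ± 0.49 (adjusted p = 0.646). The other probe set of Stat2 stood the other way, at 1.12 (adjusted p = 0.742 by limma, over all probe sets). Ifitm3 had signals of 569, 694 and 421 in 3447 SP against 115, 193 and 239.6 in 3447 non-SP, and Stat2 had 22.9, 37.2 and 20.9 against 82.7, 58.3 and 63.6. Neither gene overlapped between the sorts, and Ifit2 did, with 189, 95.3 and 102 in SP against 212, 318 and 153 in non-SP. On the normalized scale 6 members did not overlap (27.3%), against 17.5% of all genes, with Ifitm3, B2m, Tapbp and Nlrc5 higher in SP (9.07% of all genes) and Stat2 and H2-D1 lower (8.44%).

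In neurospheres 0 members passed between SP and non-SP cells by limma, where 0.0168% of all genes passed, and 0 had an unadjusted p under 0.05, against 3.59% of all genes. The groups overlapped in each of the 22 members, while 4.37% of all genes were higher and 3.23% lower without overlap, 7.6% in all. Still, 18 of 22 members stood above 0, with a median of 0.43 against 0.04 for all genes. The 3 smallest p were those of Tapbp at 0.48 ± 0.25, Nlrc5 at 0.74 ± 0.41 and Ifih1 at 1.03 ± 0.62, each with an adjusted p of 1 by limma. With the array number as a block, Tapbp had an unadjusted p of 0.0261 and Ifitm3, at 0.65, one of 0.0363, and neither passed after adjustment (adjusted p = 0.712 and 0.771 by limma). Without both arrays numbered 3, Tapbp stood at 0.69 and Trim25 at 1.08, with unadjusted p of 0.0177 and 0.0322 by limma. After adjustment 0 of the 20 members tested there passed. Within all 3 array numbers, 10 members were higher in SP (45.5%), against 20.8% of all genes, and 2 were lower (9.09%), against 14.6%. The difference between the SP effect in line 3447 and that in neurospheres passed in 0 members by limma, where 0% of all genes passed, with 0 members and 2.23% of all genes at an unadjusted p under 0.05. Its smallest p were those of Stat2 at -1.10 ± 0.69, Ifih1 at -1.32 ± 0.87 and Ifit2 at -0.70 ± 0.47, with adjusted p of 0.999, and the other Stat2 probe set stood at 0.96. Without both neurosphere arrays numbered 3, Trim25 stood at -1.54 in this difference, with an unadjusted p of 0.0199 by limma, and 0 members passed.

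Several members spread widely within the neurosphere groups. Rsad2 had 62.0, 258 and 2553 in neurosphere SP and 119, 103 and 711 in neurosphere non-SP, so array 3 stood 4.09 and 2.63 above the mean of arrays 1 and 2 on the log2 scale. Ifit1 had 42.2, 53.0 and 398 in neurosphere SP and 46.0, 43.6 and 117 in neurosphere non-SP, with array 3 higher by 2.71 and 1.37. Ifi35, Ifitm3, Ifit3, Tap1 and H2-K1 were between 1.03 and 2.40 higher on array 3 in both sorts. In all, 11 of 22 members (50%) were highest on array 3 in both sorts, against 20.4% of all genes, and 4 of 22 (18.2%) were higher by over 1 on the log2 scale on array 3 than on either other array in both sorts, against 1.42% of all genes.

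The members did not all move with those arrays. Gbp2 was lowest there, by 1.41 and 1.26 below the mean of arrays 1 and 2, as was Gbp3, by 0.98 and 1.78, and Ifit2 was lowest too. Equally numbered neurosphere SP and non-SP arrays also deviated together over all genes, as given in the methods. Cxcl10, an interferon-induced chemokine, had 107, 73.3 and 1349 in neurosphere SP and 49.1, 57.1 and 132 in neurosphere non-SP. Ifnb1, interferon beta, was not tested and stood at 46.2 or less on every array. The summed microglia and macrophage markers were 367 and 314 on neurosphere SP array 3 and neurosphere non-SP array 3, which were not the highest of their groups. What set the arrays numbered 3 apart was not tested.

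Leaving out both neurosphere arrays numbered 3, a setting chosen after seeing the data, left 20 members tested. Rsad2 in 3447 SP over neurosphere SP stood at 0.29 without them and at -1.08 with them, Ifitm3 at 0.20 and -0.44, and Ifit3 at 0.11 and -0.48, and none of these values passed by limma. Ifih1 stood at -1.03 without them and at -1.74 with them in the same comparison, and neither value passed. Trim25, on which neurosphere SP array 3 lay 2.30 below the mean of the other two on the log2 scale, stood at -0.50 without them and 0.27 with them in 3447 SP, and at 2.03 and 2.80 in 4346 SP, where it passed either way. With 2 neurosphere arrays in each group, 5 members passed in 3447 SP, where 17.6% of all genes did, now with B2m (0.72 ± 0.15, adjusted p = 0.00413 by limma) and without Dtx3l. In 4346 SP 7 passed, without Ifit2, and in 3447 non-SP 5 passed, without Bst2, where 21.6% and 18.2% of all genes did. Gbp2, Gbp3, Ifi35 and Tapbp passed in all 3 comparisons either way, and H2-K1 and H2-D1 in 4346 SP stood at -1.49 and -1.14 without those arrays.

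**Figure D5:**
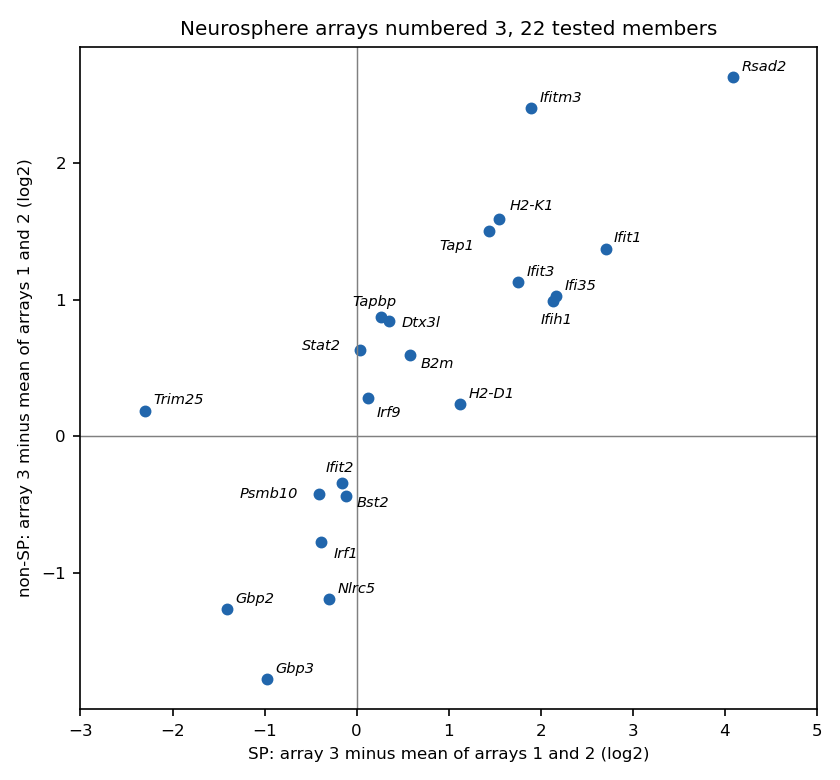
Array 3 minus the mean of arrays 1 and 2 for the 22 tested members, on the normalized log2 scale, in neurosphere SP (horizontal axis) and neurosphere non-SP (vertical axis). Rsad2, Ifit1, Ifi35, Ifitm3, Ifit3, Tap1 and H2-K1 lie above 1 on both axes, and Gbp2 and Gbp3 lie well below 0 on both.

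Members with ISRE letters in their promoter windows did not move as 1 block. In 3447 SP over neurosphere SP the 10 tested members with such letters had a median log2 difference of -1.24 and 2 passed, while the 11 without had -0.36 and 3 passed. In 4346 SP the medians were -0.93 with letters, where 2 passed, and 0.39 without, where 6 passed. In 3447 non-SP they were -0.36 and 0.11, and 3 passed in each set. On neurosphere array 3 the members with ISRE letters stood 1.17 above the mean of arrays 1 and 2 in SP cells and 0.81 in non-SP cells as medians, and those without stood 0.27 and 0.28 above. Array 3 was the highest of its group in 6 of 10 members with the letters and 6 of 11 without in SP cells. In non-SP cells it was the highest in 7 of 10 and 6 of 11. These are descriptions of 21 genes with no test. Several members also lie side by side in RefSeq gene order, namely Ifit2 with Ifit3 on chromosome 19, Parp14 with Dtx3l on chromosome 16, and Psmb9, Tap1, Psmb8 and Tap2 in a row on chromosome 17, where H2-K1, H2-D1 and Tapbp lie as well.

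The rest of the pathway was counted in gene lists chosen by known function. Of all genes, 10.7% rose and 8.96% fell in 3447 SP, 14% and 10.3% in 4346 SP, and 11.2% and 8.21% in 3447 non-SP. These shares stand beside the counts of every list below. Of 21 other interferon-stimulated genes tested, 2 rose and 3 fell in 3447 SP, 2 rose and 2 fell in 4346 SP, and 2 rose and 2 fell in 3447 non-SP. Besides Gbp7, Parp12, an ADP-ribosyltransferase, fell, at -0.73, -1.28 and -0.94, and Ifi27 rose by 0.70, 0.74 and 0.98 in these comparisons. Irgm1, an immunity-related GTPase, rose by 1.37 in 3447 SP and 1.91 in 3447 non-SP, stood at 0.05 in 4346 SP, and was higher in 3447 SP than in 4346 SP by 1.32 (adjusted p = 0.0132 by limma).

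Of 11 nucleic acid sensors and adaptors, 2 fell in 3447 SP, 1 in 4346 SP and 2 in 3447 non-SP, and none rose. Of all genes, 8.96%, 10.3% and 8.21% fell in the same order. Cgas, the cytosolic DNA sensor, had 98.3, 103 and 162 in 3447 SP, 78.1, 81.4 and 83.1 in 3447 non-SP and 276, 168 and 397 in 4346 SP, against 505, 439 and 856 in neurosphere SP and 419, 439 and 802 in neurosphere non-SP. No tumour array reached a neurosphere array. It fell, with differences of -2.30 ± 0.34, -2.41 ± 0.34 and -1.07 ± 0.34 in 3447 SP, 3447 non-SP and 4346 SP (adjusted p = 0.00015, 9.68e-05 and 0.0314 by limma). Tbk1, its downstream kinase, fell, at -1.01 in 3447 SP and -0.70 in 3447 non-SP.

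Of 8 receptors and kinases, Jak1 fell in 4346 SP (-0.80) and in 3447 non-SP (-0.70), and 0 passed in 3447 SP. Of 8 other STAT and IRF factors, Stat5a rose by 2.86 and 2.79 and Irf8 by 1.70 and 1.57 in 3447 SP and 4346 SP, and Irf5 fell by 0.75 in 3447 SP. In 3447 non-SP 0 of the 8 passed. Their medians were -0.11, -0.29 and -0.11 in 3447 SP, 4346 SP and 3447 non-SP. Of 10 negative regulators, the phosphatase gene Ptpn6 rose by 1.41 in 3447 SP, 3.24 in 4346 SP and 2.02 in 3447 non-SP, and Pias1, a SUMO ligase, by 0.76 and 0.65 in the SP comparisons. Of 2 genes tested from a list of interferons and other cytokines, the chemokine gene Cxcl10 fell, at -2.65 ± 0.80 in 3447 SP and -2.30 ± 0.80 in 4346 SP. Within neurosphere SP these 2 genes were highest on array 3, by a median of 1.50 above their group means on the log2 scale. No values without that array are given for them.

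Of 8 other class I loading genes, 0 passed in 3447 SP, 3 in 4346 SP and 1 in 3447 non-SP. Cd1d1, a class I-like molecule that presents lipids, fell, at -1.87 in 4346 SP and -1.79 in 3447 non-SP, Tapbpl, a tapasin relative, rose by 1.30 in 4346 SP, and Pdia3, a disulphide isomerase of the loading complex, fell by 0.55 there. Of 14 constitutive proteasome subunits 2 passed, both in 4346 SP, where Psma6 fell by 1.02 and Psma3 fell by 0.48. Of 4 class II presentation genes tested, 0 passed by limma in these comparisons and 0 had an unadjusted p under 0.05.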

How the data were processed

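Per the labels, RNA of sorted cells was purified on small columns, amplified by the NuGEN Ovation Pico method and hybridised to 15 arrays. The deposited values are intensities, MAS5 signals made in Affymetrix Expression Console per the submitters' processing notes, version not given in the sources used here. Judged from the values, the authors had scaled each array to a mean of 500 after trimming 2% of probe sets at each end. Array medians differed by a ratio of 2.23, so signals were quantile-normalized, 16 was added and log2 was taken. Probe sets were kept when above their own array's median on at least 3 arrays, and each gene took the probe set with the highest mean. Of 45101 probe sets, 64 were controls, 34945 carried 1 gene symbol, 932 several and 9160 none, per GEO's platform annotation. Tests used limma 3.58.1 in R 4.3.3 with a mean for each of the 5 groups over 15 arrays, leaving 10 residual degrees of freedom, and a mean-variance trend, in two-sided moderated tests, adjusted by Benjamini-Hochberg over 11908 genes at 0.05. There were 7 comparisons. The number of arrays limits the precision, and p-values measure the spread between cultures of a tumour line or of neurospheres, not between tumours. Members and lists were chosen with earlier results of these data known. All members are accounted for, members that passed are named, up to 4 genes that passed are named per other list, and where no member passed the 3 with the smallest p are named. Cxcl10 on neurosphere arrays, Ifnb1 and Aif1 were chosen for mention after their values were seen.

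Equal replicate numbers paired SP and non-SP arrays in neurospheres, where deviations from the group means correlated at 0.58, 0.52 and 0.62 over all genes, and not in line 3447, where they correlated at -0.22, -0.25 and -0.12. Alternatives were other constants, filters, normalizations, probe set rules, array weights, array subsets and replicate blocks.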

Additional observations from a re-analysis of the deposited data

Results flagged for a closer look

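Trim25 and Ifit2 moved differently in the SP cells of the tumour lines, by the direct test of 3447 SP against 4346 SP. Trim25 was at -2.54 and Ifit2 at -1.38 on the log2 scale, with adjusted p of 0.019 and 0.0486 by limma, lower on 3 of 3 arrays of 3447 SP than on any array of 4346 SP in each gene. The summed signals of pericyte and fibroblast markers were 1178 to 3197 in 3447 SP and 7649 to 8163 in 4346 SP. Of the 4 tested, 0 passed between these groups by limma, with a median log2 difference of 0.07. The part of these markers in either result was not tested.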

How the results depend on the processing

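Of 21 single-member calls, 11 held under every alternative run, namely Gbp3 and Ifi35 in all 3 tumour comparisons, Gbp2 in those of SP cells, Dtx3l in 3447 non-SP, and Trim25 and H2-D1 in 4346 SP over neurosphere SP. The calls of Gbp2 and Gbp3 among them stay tied to the filter, which both genes passed through the neurosphere arrays alone. The filter at 6 arrays removed Gbp2 and Bst2, so they have no value there. Over 824 alternatives of 30 single-member results, 105 lost the call, 0 gained one and 0 reversed. All 105 losses fell on the 21 results that had passed, since the others had no call to lose. The share lost among alternatives of those 21 is thus larger than 105 of 824. In 3447 SP over neurosphere SP the 5 members called became 8 with array weights, where 22.1% of all genes passed, and leaving out single arrays gave 3 to 6, with 14.4% to 23.8% of all genes, with 3 without 3447 SP array 1 or neurosphere SP array 2. In 4346 SP over neurosphere SP the 8 became 5 without both 3447 SP array 3 and 4346 SP array 3, where 18.9% of all genes passed, and leaving out single arrays gave 5 to 9, with 18.9% to 25.1% of all genes, with 5 without 4346 SP array 3 or neurosphere SP array 3. In 3447 non-SP over neurosphere non-SP leaving out single arrays gave 3 to 6, with 13.7% to 23% of all genes, with 3 without 3447 non-SP array 2 or 3 or neurosphere non-SP array 1. Of the 2 members called in 3447 SP over 4346 SP, 0 passed with 1 added in place of 16 (1.05% of all genes) and without both 3447 SP array 3 and 4346 SP array 3 (0.573%). In that comparison 1 passed with array weights, a filter at 6 arrays, no filter, no trend of spread on level, only the compared groups in the fit, signals as deposited, or without both neurosphere arrays numbered 3, with 0.863% to 2.38% of all genes, and leaving out single arrays gave 0 to 2, with 0.904% to 2.6%. The fit that left out both neurosphere arrays numbered 3 was chosen after seeing the data. The cause of these shifts was not tested.

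Centring arrays on their medians moved the median of all genes to -0.18 in 3447 SP and 0.19 in 4346 SP over neurosphere SP, 0.18 in 3447 non-SP over neurosphere non-SP, -0.38 in 3447 SP over 4346 SP and -0.30 in 3447 SP over 3447 non-SP, and none of the 30 single-member results reversed with it, while Tapbp lost its 3 calls. With the replicate block in both origins, and among neurospheres alone, 0 members passed between SP and non-SP cells of line 3447 and of neurospheres or in the difference of these effects, so the pairing changed no call. Signals near or below the array median limit, among others, Gbp2, Gbp3, Bst2, Ifit1, Tap1, Stat2, Ifih1, Ifit3 and Nlrc5. Tumour or neurosphere values of these genes lie in the range of the untested members. Stat2 stood above the array median on 0 of 3 arrays in 3447 SP and in 4346 SP. Ifih1 did so on 1 of 3 arrays in each tumour group, and Ifit3 and Nlrc5 on 0 of 3 in 3447 non-SP.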

Other observations

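The genes whose 5 group means ran most like the mean of the tested members were Gsto1, a glutathione transferase (Pearson r = 1.00 over 5 group means), Togaram2 (0.99), Vamp8, a membrane fusion protein (0.99), Ccm2 (0.98) and Pyroxd2 (0.98). They came from 4462 other genes whose group means spanned over 1 on the log2 scale. Gsto1 had mean log2 signals of 9.95 in 3447 SP, 9.94 in 3447 non-SP and 10.43 in 4346 SP, against 10.97 in neurosphere SP and 10.38 in neurosphere non-SP. The mean of the members had 7.53, 7.51 and 7.79 in the tumour groups, against 8.09 and 7.74 in the neurospheres, in the same order. With 5 points and 4462 candidates such values of r describe a likeness only.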
